A study of Mus musculus with 12 samples.

Results

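The 10 genes described here are parts of the circadian clock: Clock, Per1, Per2, Per3, Cry1, Cry2, Nr1d1, Nr1d2, Dbp and Nfil3. They were chosen by name out of 18193 genes measured on 12 Affymetrix arrays, 1 array per sample. All 10 had at least 1 probe set that names a single gene, 22 such probe sets in all, and each gene was represented by the one with the highest mean over the 12 arrays. The arrays held granulosa cells of preovulatory follicles, cut out by laser from ovaries of 3-week-old mice. There were 4 groups of 3 arrays: bERKO with PMSG and hCG, bERKO with PMSG alone, WT with PMSG and hCG, and WT with PMSG alone. All mice had received PMSG (pregnant mare serum gonadotropin, which acts like follicle-stimulating hormone), and cells of the PMSG groups were taken 48 h after it. The hCG groups are labelled with the same 48 h of PMSG. They also received human chorionic gonadotropin, which acts like luteinizing hormone, and their cells were taken 4 h after hCG. bERKO mice lack estrogen receptor beta, the product of Esr2; the sources used here give neither its allele nor the strain. Arrays within a group are labelled as biological replicates, with no word on how many mice each stands for, so p-values measure the spread between these samples.

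The clock is a feedback loop of transcription. CLOCK and its partner ARNTL (BMAL1) bind E-box sequences and drive the Per and Cry genes, whose proteins return to the nucleus and block CLOCK and ARNTL. A second loop runs through the nuclear receptors NR1D1 and NR1D2 (REV-ERB alpha and beta), which repress Arntl. A further loop runs through D-box sequences, which DBP, TEF and HLF activate and NFIL3 represses. Per1 and Per2 are also known as early targets of cAMP signalling through CREB, and the luteinizing hormone receptor of granulosa cells signals through cAMP. In the rodent ovary clock genes are known to cycle over the day. The sources used here do not state the clock time of collection, so hCG, the 4 h that passed after it and any difference in the hour of collection cannot be told apart.

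Promoters were searched for the letters of these elements close to each start site. RefSeq start-site tables (build GRCm38.p6) held windows for 9 of the 10 genes, 12 windows in all, and the 250 bases before each start were searched on both strands. E-boxes (CACGTG) lay in 6.02% of the 32851 windows of all genes, E-prime boxes (CACGTT) in 3.85%, full cAMP response elements (TGACGTCA) in 1.55%, the shorter core of that element (TGACG) in 17.8% and D-boxes (TTATGTAA or TTACGTAA) in 0.931%. A full element holds the core on both strands, so these 2 patterns overlap. A match on the other strand reads AACGTG for the E-prime box and CGTCA for the core. The promoters of the clock genes with a match whose values are described below as changed, or as early cAMP targets, are printed 5′ to 3′ on the gene's strand, with the matched letters in capitals: Per1 (chr11:69098699-69098948, plus strand, an E-box and a TGACG core), Per3 (chr4:151044666-151044915, minus strand, a D-box at 2 positions), Cry1 (chr10:85185055-85185304, minus strand, an E-box, an E-prime box and a TGACG core), Cry2 (chr2:92434070-92434319, minus strand, an E-prime box and a TGACG core) and Nfil3 (chr13:52981040-52981289, minus strand, a TGACG core).
Per1: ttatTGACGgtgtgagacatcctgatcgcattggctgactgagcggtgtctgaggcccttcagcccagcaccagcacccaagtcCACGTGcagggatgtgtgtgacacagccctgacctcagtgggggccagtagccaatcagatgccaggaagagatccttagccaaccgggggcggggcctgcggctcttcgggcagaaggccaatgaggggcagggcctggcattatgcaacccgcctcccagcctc
Per3: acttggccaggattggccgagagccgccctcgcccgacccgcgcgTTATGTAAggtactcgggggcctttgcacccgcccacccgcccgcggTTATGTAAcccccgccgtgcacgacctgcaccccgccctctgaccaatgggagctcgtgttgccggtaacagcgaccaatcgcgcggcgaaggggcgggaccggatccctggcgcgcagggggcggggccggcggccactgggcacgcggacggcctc
Cry1: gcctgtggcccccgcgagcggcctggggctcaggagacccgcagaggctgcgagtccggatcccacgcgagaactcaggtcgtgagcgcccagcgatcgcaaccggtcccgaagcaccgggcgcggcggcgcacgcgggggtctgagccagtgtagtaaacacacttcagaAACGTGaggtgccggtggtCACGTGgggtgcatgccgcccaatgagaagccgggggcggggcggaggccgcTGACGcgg
Cry2: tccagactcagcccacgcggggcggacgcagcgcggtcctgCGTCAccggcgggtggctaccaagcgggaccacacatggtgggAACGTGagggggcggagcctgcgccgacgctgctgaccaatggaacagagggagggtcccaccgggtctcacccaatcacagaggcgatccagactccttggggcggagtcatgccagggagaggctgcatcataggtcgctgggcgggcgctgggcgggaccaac
Nfil3: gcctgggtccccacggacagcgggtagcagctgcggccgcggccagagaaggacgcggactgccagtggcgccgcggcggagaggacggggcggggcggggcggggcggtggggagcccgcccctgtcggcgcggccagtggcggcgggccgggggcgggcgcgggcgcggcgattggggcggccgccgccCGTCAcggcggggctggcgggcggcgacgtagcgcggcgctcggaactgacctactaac

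These matches are letters in a window, and whether a factor bound them was not measured. Positions count bases back from the start site. In Per3 the D-boxes began at -205 and -158. The E-box of Cry1 began at -60 and its E-prime box at -79. Per1 carried its E-box at -166 of 1 start site, and the window of its other start held a TGACG core only. The search also found an E-prime box at -28 of Nr1d1. Clock, Nr1d2 and Dbp held none of the 5 patterns in these windows, and Per2 was not searched.

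A pair of libraries differed from the others in quality. The 3'/5' ratio of the Gapdh control probes, a measure of RNA integrity that rises with degradation, was 32.16 on WT hCG replicate 1 and 23.74 on bERKO PMSG replicate 3, against 4.719 to 11.19 on the other arrays. WT hCG replicate 1 also lacked the induction of Pgr, the progesterone receptor, that other hCG arrays had: its Pgr level was 5.20, against 13.09 and 13.37 on the other WT hCG arrays and 6.43 to 6.65 in the WT PMSG group. Ptgs2, which was also high on the other hCG arrays, was raised in part on this array. Its level there was 8.17, against 12.23 and 13.61 on the other WT hCG arrays and 4.05 to 5.12 in the WT PMSG group. Esr2 measured 8.12 to 8.63 on the bERKO arrays and 8.67 to 10.33 on the WT arrays, and the sources used here do not say whether its probes lie in the deleted part. The mean level of 9 granulosa markers was high in every group, 10.72 to 11.05 in bERKO hCG, 11.20 to 11.50 in bERKO PMSG, 11.58 to 11.72 in WT hCG and 11.65 to 11.93 in WT PMSG. Markers of other cells varied with the groups. The mean of 8 endothelial markers was 7.19 to 8.16 in bERKO hCG and 5.44 to 6.38 over the other groups, and the mean of 10 oocyte markers was 8.67 to 10.13 in bERKO PMSG and 5.65 to 8.34 over the other groups. In such captured samples fewer cells of a type and less RNA per cell cannot be told apart.

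Levels below are log2(intensity + 16) after quantile normalization, and a change is a difference of group means on that scale, which understates changes of dim genes. Each comes with its standard error (SE) and with an adjusted p from limma over all 18193 genes, 3 arrays per group. A gene passed where the adjusted p was under 0.05. The 10 genes covered a wide range of within-gene spread: Dbp spanned 4.08 log2 units over the 12 arrays and Cry1 1.18. Per2 was dim, under 7 on all 12 arrays, and Nr1d1 was under 7 on 8 arrays.

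**Figure D1:**
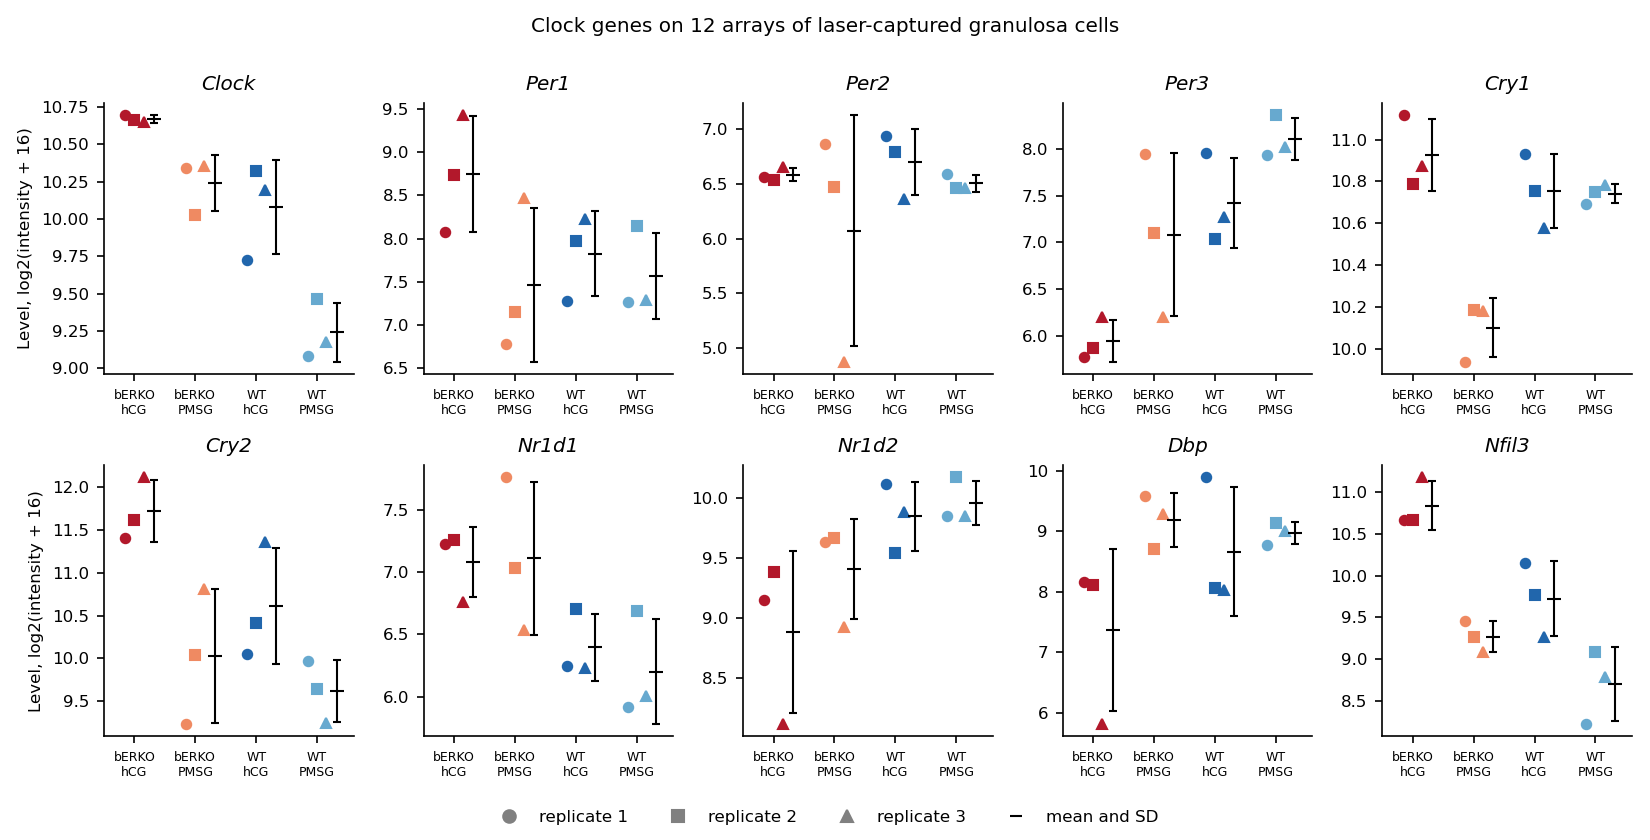
Level of each of the 10 clock genes, log2(intensity + 16) after quantile normalization, on the 3 arrays of each group, with the group mean and SD as the black bar; each panel has its own axis. Nfil3, Cry2, Cry1 and Clock lie higher on all bERKO hCG arrays than on any bERKO PMSG array, and Per3 and Dbp lie lower.

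After hCG in bERKO granulosa cells, 3 of the 10 clock genes rose and 0 passed as lower; of all genes, 7.06% passed as higher and 11.9% as lower. The genes that rose were Nfil3, Cry2 and Cry1. Per3 and Dbp had lower levels on each bERKO hCG array than on any bERKO PMSG array but missed the threshold. The 2 groups did not overlap for 6 of the 10 genes, against 36.2% of all genes. The median change of the 10 genes was 0.47, beside -0.19 over all genes. In WT, 0 of the 10 passed.

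The activator came first in the order of roles. Clock encodes the DNA-binding partner of ARNTL. Its levels were 10.70, 10.67 and 10.65 in bERKO hCG, against 10.34, 10.02 and 10.36 in bERKO PMSG. In WT they were 9.72, 10.32 and 10.20 after hCG, against 9.08, 9.46 and 9.18 after PMSG. Clock was thus highest in bERKO hCG and lowest in WT PMSG, and within each genotype the hCG arrays lay above the PMSG arrays with no overlap. The change was 0.43 in bERKO (SE 0.25, adjusted p = 0.263 by limma) and 0.84 in WT (SE 0.25, adjusted p = 0.108), neither past the threshold. Averaged over both genotypes, Clock rose by 0.63 (SE 0.18, adjusted p = 0.0264), a comparison that shares its arrays with the other 2. That call was lost in 8 of 23 alternative settings, among them centring each array on its median (0.32, adjusted p = 0.325). The probe sets of Clock did not all share this direction: the dimmest, with a mean level of 6.26, gave -0.72 in WT (SE 0.28, adjusted p = 0.236) and -0.02 over both genotypes (SE 0.20, adjusted p = 0.962), while the other 3 were positive in both. Without WT hCG replicate 1, the Clock change was 1.02 in WT (adjusted p = 0.0578) and 0.72 over both genotypes (adjusted p = 0.0113).

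The cryptochromes, the strongest repressors of CLOCK and ARNTL, gave 2 of the 3 rises in bERKO. Cry2 measured 11.41, 11.63 and 12.12 in bERKO hCG, against 9.23, 10.04 and 10.81 in bERKO PMSG. All bERKO hCG arrays lay above all bERKO PMSG arrays, whose own values spread widely. Cry2 rose by 1.69 in bERKO (SE 0.44, adjusted p = 0.0205), a 3.23-fold difference on this scale. In WT, Cry2 measured 10.05, 10.42 and 11.36 after hCG, against 9.97, 9.64 and 9.24 after PMSG. The WT groups did not overlap either, but the change of 0.99 did not pass (SE 0.44, adjusted p = 0.278). Over both genotypes Cry2 rose by 1.34 (SE 0.31, adjusted p = 0.0112), and this call held in 23 of 23 alternative settings.

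Cry1, with 1 probe set, measured 11.12, 10.79 and 10.87 in bERKO hCG, against 9.94, 10.19 and 10.18 in bERKO PMSG. WT arrays gave 10.93, 10.75 and 10.58 for Cry1 after hCG, against 10.69, 10.75 and 10.78 after PMSG. The bERKO PMSG arrays were thus low and the other 3 groups lay together. Cry1 rose by 0.82 in bERKO (SE 0.23, adjusted p = 0.0262), a 1.77-fold difference, and its change in WT was 0.01 (SE 0.23, adjusted p = 0.988). The difference between the 2 responses was 0.81 with a 95% interval of 0.11 to 1.51, but it did not pass over all genes (adjusted p = 0.259). The bERKO calls of both cryptochromes depended on single arrays. Cry1 missed the threshold without bERKO PMSG replicate 1 (0.74, adjusted p = 0.0748) and without bERKO hCG replicate 1, 2 or 3 (0.72 to 0.89, adjusted p = 0.0521 to 0.0971). Cry2 missed it without bERKO PMSG replicate 1 (1.29, adjusted p = 0.0715), bERKO hCG replicate 2 (1.74, adjusted p = 0.0511) or bERKO hCG replicate 3 (1.49, adjusted p = 0.078). Under median centring neither passed: Cry1 was at 0.48 (adjusted p = 0.286) and Cry2 at 1.35 (adjusted p = 0.0585).

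The Per genes, whose proteins pair with the cryptochromes, did not move as one. Per3 measured 5.77, 5.87 and 6.20 in bERKO hCG, against 7.95, 7.10 and 6.20 in bERKO PMSG. Per3 on the WT arrays was at 7.96, 7.03 and 7.28 after hCG, against 7.94, 8.36 and 8.02 after PMSG. Per3 was lowest in bERKO hCG, whose 3 arrays lay below every array of the other groups. The highest of them was just below bERKO PMSG replicate 3, a library with a high Gapdh ratio. The change was -1.14 in bERKO (SE 0.41, adjusted p = 0.0745) and -0.69 in WT (SE 0.41, adjusted p = 0.438). Averaged over both genotypes Per3 fell by 0.91 on the log2 scale (SE 0.29, adjusted p = 0.0465), a call lost in 15 of 23 alternative settings, 10 of which left out 1 array. Without bERKO PMSG replicate 3, the bERKO change of Per3 was -1.58 and passed (adjusted p = 0.0144), and without bERKO PMSG replicate 1 it was -0.71. The other 5 probe sets of Per3, all with a mean level of 5.98 or lower, gave bERKO changes of -0.98 to -0.02, and none passed.

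Per1, the period gene best known as an early cAMP target, measured 8.08, 8.73 and 9.42 in bERKO hCG, against 6.78, 7.15 and 8.47 in bERKO PMSG. On the WT arrays Per1 was at 7.28, 7.97 and 8.23 after hCG, against 7.27, 8.14 and 7.30 after PMSG. Both pairs of groups overlapped. The change was 1.28 in bERKO (SE 0.49, adjusted p = 0.0917) and 0.26 in WT (SE 0.49, 95% interval -0.81 to 1.33, adjusted p = 0.857). Without bERKO PMSG replicate 3 the bERKO change of Per1 was 1.75 and passed (adjusted p = 0.0239), and it also passed with array weights (1.39, adjusted p = 0.0436). Per2 was close to the lower end of the scale, with group means of 6.59 ± 0.06 in bERKO hCG, 6.07 ± 1.06 in bERKO PMSG, 6.70 ± 0.30 in WT hCG and 6.51 ± 0.08 in WT PMSG (SD, n = 3 each). Its 3 probe sets, with mean levels of 6.47, 6.31 and 5.52, differed in sign in bERKO, at 0.51, -0.22 and -0.01. In WT all 3 were positive, at 0.19, 1.73 (SE 0.77, adjusted p = 0.308 by limma) and 1.42 (SE 0.94, adjusted p = 0.52). None passed in any comparison. These arrays thus gave no usable direction for Per2 in bERKO, and in WT a shared sign without a call.

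The loop receptors showed no call at the probe set used. Nr1d1 encodes REV-ERB alpha, and its gene overlaps the protein-coding gene Thra, so their signals may not be fully apart. The same holds for Per3 with Uts2 and Dbp with Sphk2, also protein-coding. Cry2 and Per2 each overlap a long noncoding RNA gene, and Clock overlaps a pseudogene and a long noncoding RNA gene. Nr1d1 levels averaged 7.08 ± 0.28 in bERKO hCG and 7.11 ± 0.62 in bERKO PMSG, then 6.40 ± 0.27 in WT hCG and 6.20 ± 0.42 in WT PMSG. Its hCG change was -0.03 in bERKO (95% interval -0.79 to 0.74, adjusted p = 0.97) and 0.19 in WT (95% interval -0.57 to 0.96, adjusted p = 0.846). Nr1d2, REV-ERB beta, measured 9.15, 9.38 and 8.11 in bERKO hCG, against 9.63, 9.67 and 8.92 in bERKO PMSG. In WT it measured 10.12, 9.54 and 9.88 after hCG, against 9.85, 10.17 and 9.85 after PMSG. The mean of Nr1d2 was lowest in bERKO hCG, whose arrays overlapped the bERKO PMSG arrays. The change was -0.53 in bERKO (SE 0.36, adjusted p = 0.344) and -0.11 in WT (SE 0.36, adjusted p = 0.923). A second, nearly as bright probe set of Nr1d2 gave -1.06 in bERKO (SE 0.32, adjusted p = 0.0398 over all one-gene probe sets), so the call depends on the probe set.

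Of the D-box factors among the 10 genes, Nfil3 rose in bERKO and Dbp did not pass. Nfil3, the repressor of D-box genes, measured 10.67, 10.67 and 11.18 in bERKO hCG, against 9.46, 9.26 and 9.09 in bERKO PMSG. In WT it measured 10.16, 9.76 and 9.26 after hCG, against 8.22, 9.09 and 8.79 after PMSG. In both genotypes every hCG array was above every PMSG array. Nfil3 rose by 1.57 in bERKO (SE 0.32, adjusted p = 0.00582), a 2.98-fold difference, and the call held in 24 of 24 alternative settings with changes between 1.28 and 1.67. The WT change was 1.03 (SE 0.32, adjusted p = 0.122), or 0.81 without WT hCG replicate 1 (adjusted p = 0.235). Over both genotypes Nfil3 rose by 1.30 (SE 0.23, adjusted p = 0.00242), also in 23 of 23 alternative settings. No difference between the 2 responses of Nfil3 was detectable (0.55, 95% interval -0.44 to 1.53, adjusted p = 0.61).

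Dbp, an activator of D-box genes, measured 8.16, 8.12 and 5.82 in bERKO hCG, against 9.58, 8.70 and 9.28 in bERKO PMSG. In WT it measured 9.89, 8.06 and 8.04 after hCG, against 8.78, 9.14 and 9.01 after PMSG. All bERKO hCG arrays lay below all bERKO PMSG arrays. In WT hCG, replicates 2 and 3 lay below the PMSG arrays. Replicate 1, which lacked the Pgr induction but had a raised Ptgs2 level, lay above them. The change was -1.82 in bERKO (SE 0.64, adjusted p = 0.0666) and -0.31 in WT (SE 0.64, adjusted p = 0.867). Without WT hCG replicate 1 the Dbp change was -1.83 in bERKO (adjusted p = 0.0376) and -0.93 in WT (adjusted p = 0.494), and over both genotypes it was -1.38 and passed (adjusted p = 0.0362), against -1.07 with all arrays (adjusted p = 0.122). That array is in neither bERKO group, so the bERKO estimate hardly moved and its adjusted p changed through the rest of the fit. Without bERKO hCG replicate 3, the lowest array, the Dbp change in bERKO was -1.05 and did not pass. The other probe set of Dbp passed in bERKO, at -1.47 (SE 0.37, adjusted p = 0.0177), and over both genotypes, at -1.03 (SE 0.26, adjusted p = 0.0184).

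**Figure D2:**
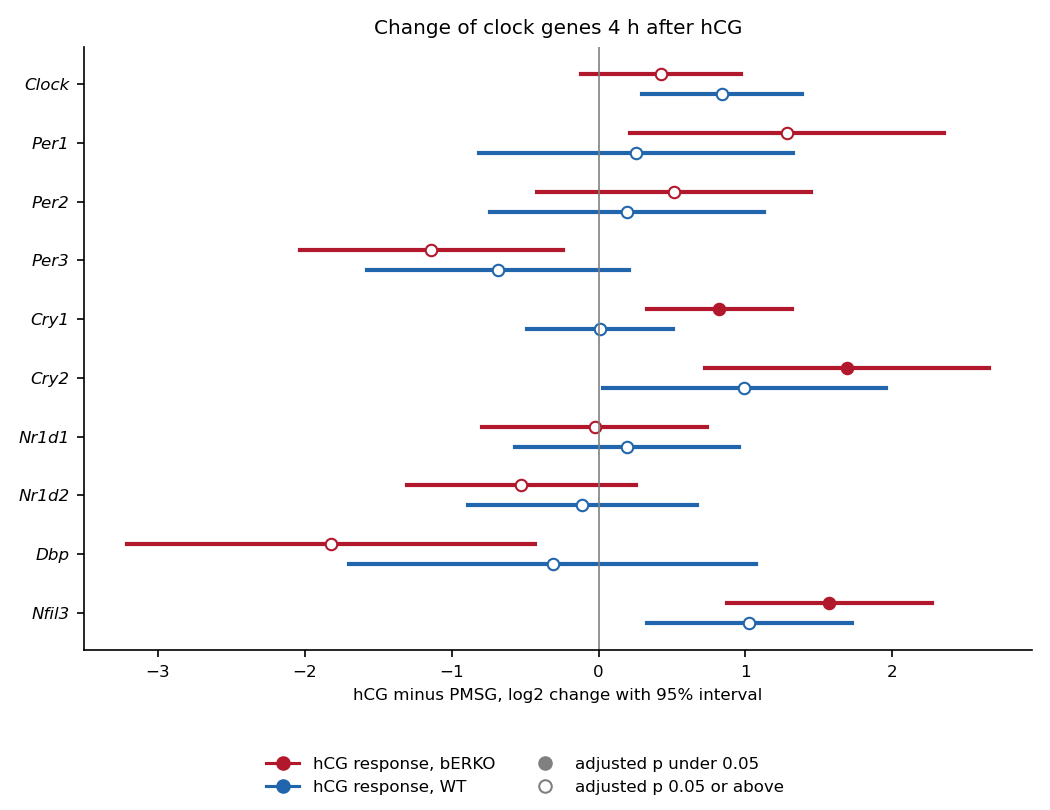
Change of each clock gene 4 h after hCG (hCG minus PMSG, log2) in bERKO and in WT, with 95% intervals from limma; filled points passed at an adjusted p under 0.05. Nfil3, Cry2 and Cry1 passed in bERKO, 0 genes passed in WT, and the intervals of the 2 genotypes overlap for every gene.

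In WT, 0 of the 10 clock genes passed after hCG by limma, where 2.11% of all genes passed in either direction. At an unadjusted p under 0.05 the count was 3 of 10 (Clock, Cry2 and Nfil3), against 17.1% of all genes. The same 3 genes were those whose WT groups did not overlap, against 24.0% of all genes. Across alternative settings 0 or 1 of the 10 passed in WT, and the gene was Clock in each of the 4 settings with a call. The difference between the bERKO and WT responses passed for 0 of the 10 genes, and for 1.32% of all genes; 1 gene, Cry1, had an unadjusted p under 0.05. An effect that passed in bERKO and not in WT is therefore not shown to differ between them. Over both genotypes 3 of 10 passed as higher (Nfil3, Cry2 and Clock) and 1 as lower (Per3), against 6.72% and 12.5% of all genes.

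Cell markers moved in bERKO as well. Of the endothelial markers 5 of 8 rose and 0 fell in bERKO after hCG. Of the stromal markers 2 of 10 rose, of the leukocyte markers 2 of 10 rose, of the oocyte markers 5 of 10 fell and of the granulosa markers 3 of 9 fell. Beside these counts, 7.06% of all genes passed as higher and 11.9% as lower. Of 4 genes on the theca list 1 rose, Star (6.50, adjusted p = 0.000537 by limma), and 1 fell, Ptch1 (-1.52, adjusted p = 0.0131). Cyp17a1, also on the theca list, did not pass (-0.12, adjusted p = 0.901). In WT, 0 markers on the first 5 lists and 1 gene on the theca list, Star, which rose, passed. Whether the rise of Star came from theca cells or from the granulosa cells themselves was not tested. Kdr, a receptor that defines endothelium, was at 7.94, 8.81 and 8.28 in bERKO hCG and at 4.93, 5.51 and 4.47 in bERKO PMSG. The mean of the stromal markers was 8 to 9.48 in bERKO hCG and 6.34 to 8.14 in bERKO PMSG, and that of the leukocyte markers 6.18 to 7.38 in bERKO hCG and 5.25 to 6.36 in bERKO PMSG. The part these markers play in the clock gene changes was not tested.

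**Figure D3:**
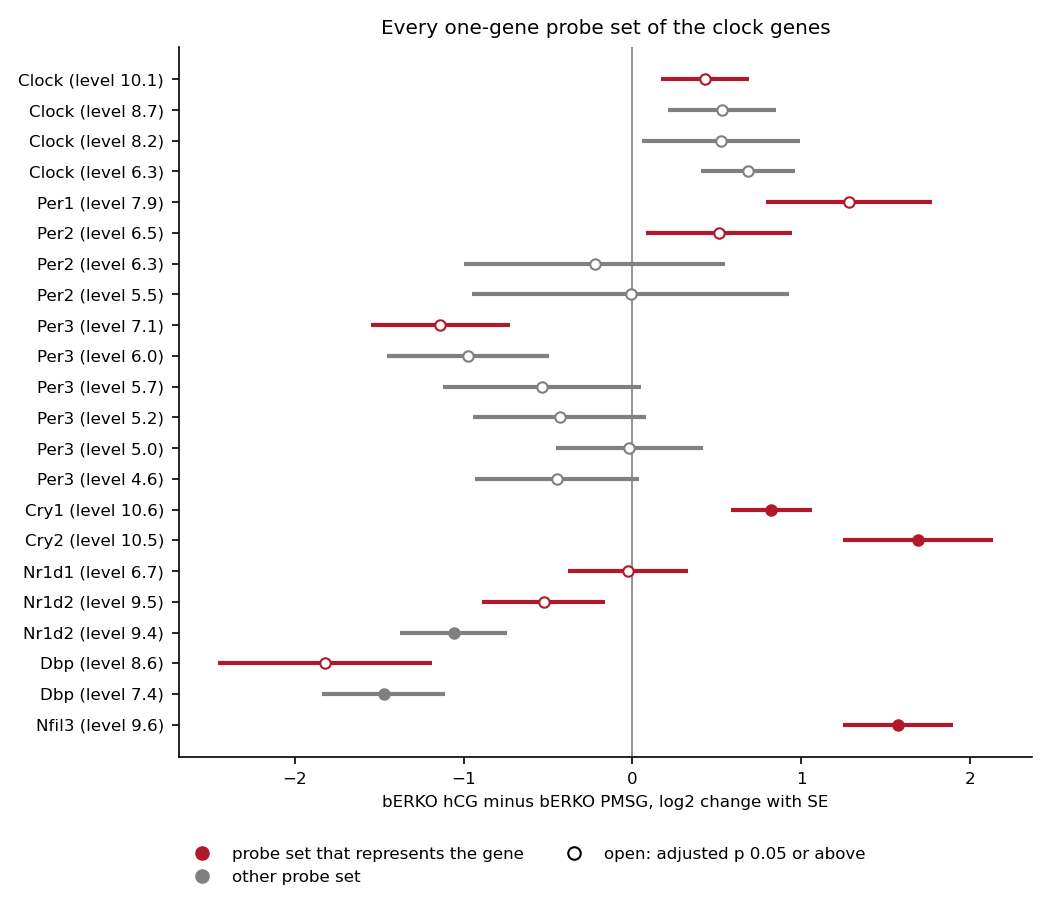
Change after hCG in bERKO (bERKO hCG minus bERKO PMSG, log2, with SE) for all 22 one-gene probe sets of the 10 genes, each labelled by gene and by its mean level over 12 arrays. In bERKO the 4 probe sets of Clock lie above 0, unlike in WT, where 1 was at -0.72; the 2 of Dbp and of Nr1d2 lie below 0, and those of Per2 on both sides.

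Genotype was compared next, within each treatment. After hCG, 0 of the 10 clock genes differed between bERKO and WT by limma, where 3.17% of all genes passed; at an unadjusted p under 0.05 there were 5 of 10 against 17.5% of all genes. The groups did not overlap for 6 of the 10 genes, against 24.5% of all genes. These were Clock, Cry2, Nr1d1 and Nfil3, with higher levels in bERKO, and Per3 and Nr1d2, with lower levels. The comparison uses the same bERKO hCG arrays as the hCG response above. Per3 differed by -1.48 (SE 0.41, adjusted p = 0.0772) and Nfil3 by 1.12 (SE 0.32, adjusted p = 0.0852). Per3 passed without bERKO PMSG replicate 3 (-1.48, adjusted p = 0.0347), without bERKO PMSG replicate 1 (-1.47, adjusted p = 0.0457) and with array weights (-1.32, adjusted p = 0.0252). Those PMSG arrays are in neither group compared, so the estimate hardly moved and the adjusted p changed through the rest of the fit. In the same comparison 4 of 8 endothelial markers were higher and 3 of 9 granulosa markers lower in bERKO, and their part was not tested. Leaving out WT hCG replicate 1 gave -1.21 for Per3 (adjusted p = 0.243) and 1.33 for Nfil3 (adjusted p = 0.0944).

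Nr1d2 differed by -0.97 after hCG (SE 0.36, adjusted p = 0.176), and its other probe set by -1.51 (SE 0.32), which passed over all one-gene probe sets (adjusted p = 0.0342). Cry2 differed by 1.11 (SE 0.44, adjusted p = 0.213), Clock by 0.59 (SE 0.25, adjusted p = 0.243) and Dbp by -1.30 (SE 0.64, adjusted p = 0.325). Without bERKO hCG replicate 3 the difference was -0.53 for Dbp and -0.58 for Nr1d2. Probe sets of Clock did not share a sign here: the one used was higher in bERKO, while another, with a mean level of 8.68, gave -0.48 (SE 0.32, adjusted p = 0.52). Cry1, Per1, Per2 and Nr1d1 gave 0.17, 0.92, -0.11 and 0.69 in turn, with adjusted p from 0.348 to 0.931.

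After PMSG alone, 0 of the 10 clock genes differed between bERKO and WT by limma, and 0.0110% of all genes passed. At an unadjusted p under 0.05 there were 4 of 10 against 9.54% of all genes. The groups did not overlap for 3 of the 10 genes, Clock, Cry1 and Nr1d2, against 14.7% of all genes. Clock averaged 10.24 ± 0.19 in bERKO and 9.24 ± 0.20 in WT (SD, n = 3 each), a difference with a 95% interval of 0.46 to 1.55 that did not pass (adjusted p = 0.265 by limma). Cry1 differed by -0.64 (SE 0.23, adjusted p = 0.398), and Nr1d2 by -0.55 (SE 0.36, adjusted p = 0.685). The other 7 genes had overlapping groups, among them Per3 at -1.02 (SE 0.41, adjusted p = 0.453), Nr1d1 at 0.91 (SE 0.35, adjusted p = 0.435), Nfil3 at 0.57, Cry2 at 0.41, Dbp at 0.21, Per1 at -0.10 and Per2 at -0.43. Clock's other probe sets gave 0.22, 0.57 and -0.74, of which none passed. Oocyte markers were at higher mean levels in bERKO PMSG than in WT PMSG (8.67 to 10.13 against 5.65 to 8.34), though 0 of 10 passed. The WT PMSG arrays spread widely, at 5.65, 6.03 and 8.34. The part of these markers in the clock gene differences was not tested.

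**Figure D4:**
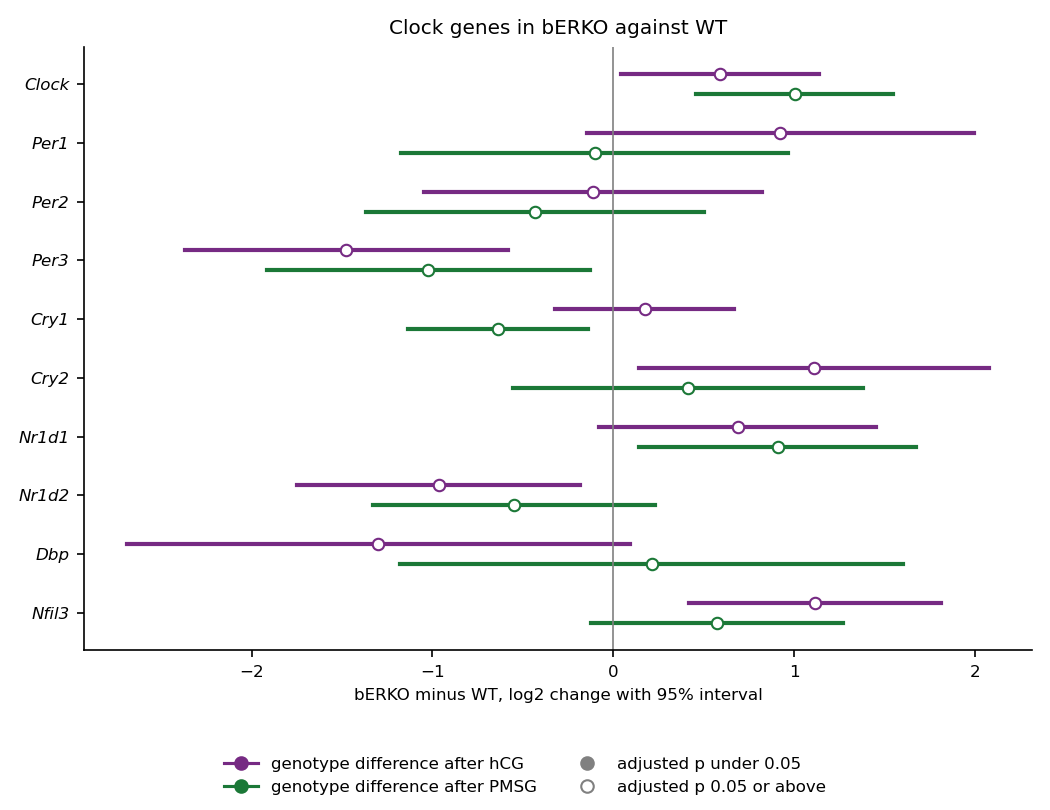
Difference of each clock gene between bERKO and WT (bERKO minus WT, log2) after hCG and after PMSG, with 95% intervals from limma. All points are open, since 0 of the 10 genes passed under either treatment; Per3 lies below 0 and Clock above 0 under both.

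The rest of the clock was read from lists of 20 further genes, 18 of them measured: the partners of CLOCK, the ROR receptors, TEF and HLF, and kinases, ubiquitin ligases and other modifiers. In bERKO after hCG 1 of the 18 rose and 3 fell, near the shares of all genes (7.06% higher and 11.9% lower). In WT 1 rose and 1 fell, where 2.11% of all genes passed. Bhlhe40, the repressor DEC1 that competes for E-boxes, had levels of 11.04, 11.16 and 11.63 in bERKO hCG, against 7.09, 7.94 and 6.77 in bERKO PMSG. In WT it had 9.76, 11.17 and 10.15 after hCG, against 8.62, 7.90 and 7.55 after PMSG. No hCG array overlapped a PMSG array in either genotype. Bhlhe40 rose by 4.01 in bERKO (SE 0.44, adjusted p = 0.000265) and by 2.34 in WT (SE 0.44, adjusted p = 0.0237), and the responses did not differ by the test over all genes (1.67, adjusted p = 0.224). The WT call was lost in 5 of 24 alternative settings, including those without WT PMSG replicate 2, WT PMSG replicate 3 or WT hCG replicate 2. Bhlhe40's change in bERKO passed in 24 of 24.

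Ciart (CHRONO), a repressor of CLOCK and ARNTL, moved the other way. It measured 5.57, 4.68 and 6.36 in WT hCG, against 8.96, 9.13 and 8.12 in WT PMSG. In bERKO it measured 4.35, 5.37 and 5.62 after hCG, against 5.55, 6.77 and 7.87 after PMSG. The WT groups stood apart, whereas the bERKO groups overlapped. Ciart fell by 3.20 in WT (SE 0.60, adjusted p = 0.0242) and changed by -1.61 in bERKO without passing (SE 0.60, adjusted p = 0.0853). The WT call was lost in 6 of 24 alternative settings, those without WT PMSG replicate 1, 2 or 3 or WT hCG replicate 2 among them. Averaged over both genotypes it fell by 2.41 (SE 0.43, adjusted p = 0.00267), in 23 of 23 alternative settings. Timeless, which in mammals acts mainly in DNA replication, fell by 1.88 in bERKO (SE 0.35, adjusted p = 0.0037), and its WT change of -1.36 did not pass (SE 0.35, adjusted p = 0.0717).

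Tef and Hlf complete the D-box factors. Tef measured 8.20, 8.15 and 7.66 in bERKO hCG, against 9.96, 9.50 and 9.91 in bERKO PMSG. Tef in WT was at 10.92, 9.73 and 9.89 after hCG, against 10.27, 10.07 and 9.81 after PMSG. The bERKO hCG arrays were below all others, while the WT groups overlapped. Tef fell by 1.78 in bERKO (SE 0.34, adjusted p = 0.00392), in 24 of 24 alternative settings, and its WT change was 0.13 (SE 0.34, adjusted p = 0.904). Tef was also lower in bERKO than in WT after hCG, by -2.18 (SE 0.34, adjusted p = 0.0091), or -1.81 without WT hCG replicate 1 (adjusted p = 0.0266). The difference between its responses, -1.91, did not pass (SE 0.48, adjusted p = 0.0764). Hlf fell by 1.39 in bERKO (SE 0.39, adjusted p = 0.0293), a call lost in 9 of 24 alternative settings, among them those without bERKO PMSG replicate 3 (-1.09, adjusted p = 0.0918), bERKO hCG replicate 2 or bERKO hCG replicate 3. Its mean was 5.86 in bERKO hCG and 7.25 in bERKO PMSG, the highest group, against 7.12 in WT hCG and 6.34 in WT PMSG. In WT Hlf thus changed the other way, by 0.78, without passing (SE 0.39, adjusted p = 0.349 by limma).

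Of the 4 D-box factors, then, the repressor Nfil3 rose in bERKO and the activators Tef and Hlf fell. Hlf was dim and its call depended on the settings. The activator Dbp had a lower mean in bERKO without passing at the probe set used. The median of the 4 was -1.59 in bERKO, beside -0.19 over all genes, and 0.45 in WT, beside -0.08, with 0 of the 4 passing in WT. Per3, whose promoter above holds D-box letters at 2 positions, had its lowest levels in bERKO hCG. Whether these factors act on Per3 in these cells was not tested. Arntl, named after its values were seen because it is the partner of CLOCK, measured 8.41, 7.87 and 7.03 in bERKO hCG, against 6.31, 7.01 and 6.21 in bERKO PMSG. Its change of 1.26 did not pass (SE 0.44, adjusted p = 0.0694), and in WT it was -0.39 (SE 0.44, adjusted p = 0.732).

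**Figure D5:**
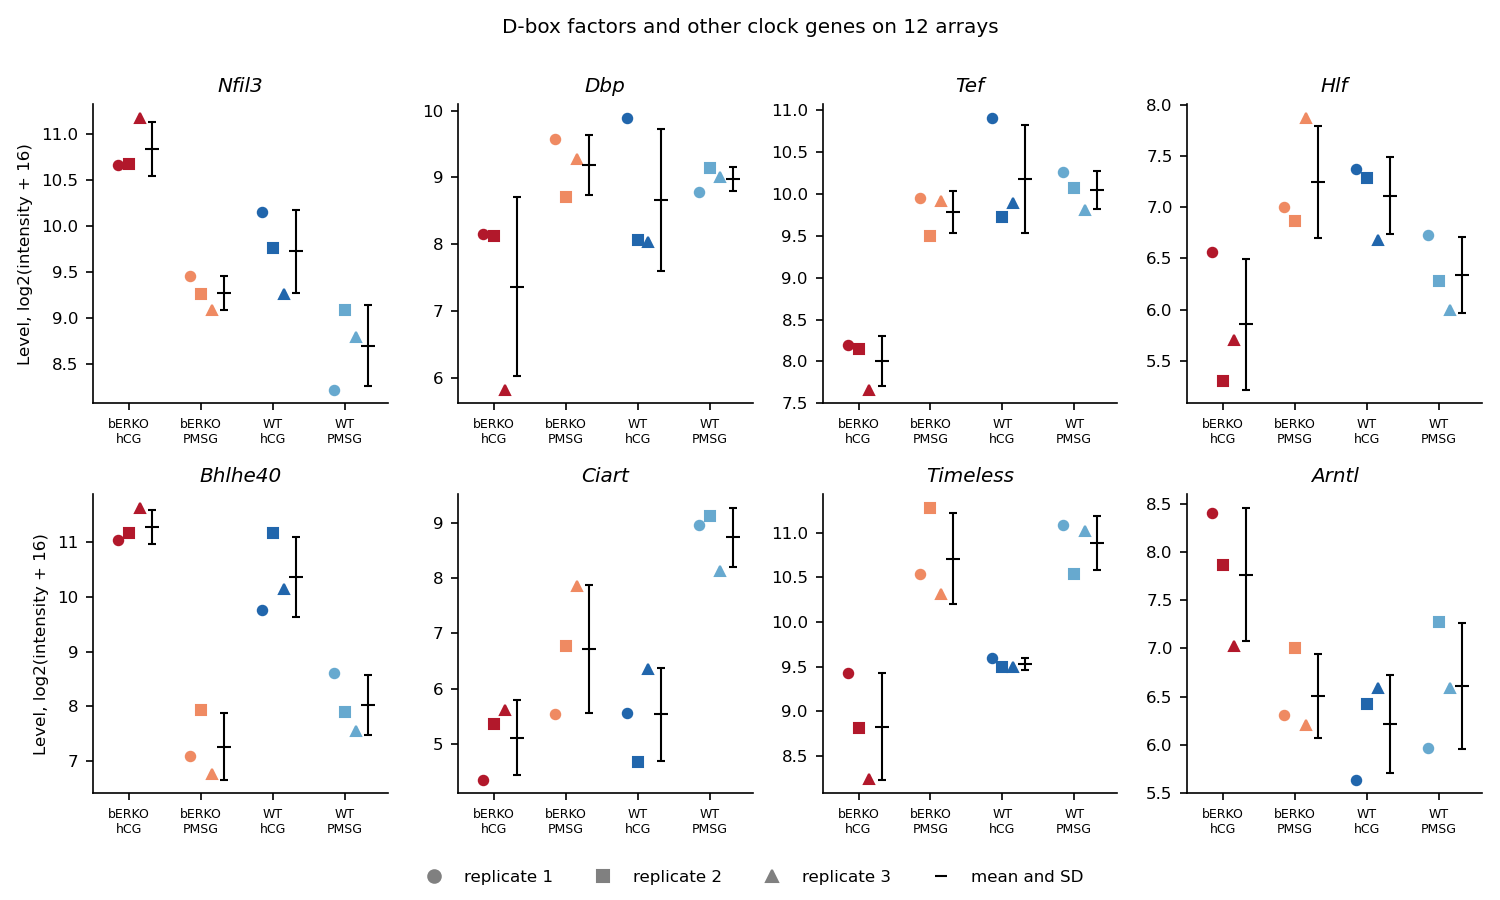
Level of the 4 D-box factors (Nfil3, Dbp, Tef and Hlf) and of 4 other clock genes, log2(intensity + 16), on the 3 arrays of each group with mean and SD; each panel has its own axis. Bhlhe40 is high and Timeless low on the hCG arrays of both genotypes, while Tef is low on the bERKO hCG arrays.

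Genes known to answer cAMP, the signal of the luteinizing hormone receptor, were read beside the clock genes. Of 12 such early genes, 8 rose in bERKO after hCG, against 7.06% of all genes. In WT 3 rose, where 2.11% passed in either direction, and 0 fell in either genotype. The list was chosen with earlier results of these data known, so these counts are not an independent comparison. Nr4a3, an orphan nuclear receptor, rose by 4.36 in bERKO (SE 0.48, adjusted p = 0.00027), and Nr4a1, its relative, by 3.99 (SE 0.59, adjusted p = 0.00106). In WT, Nr4a1 rose by 3.03 (SE 0.59, adjusted p = 0.027), Sik1, a kinase that restrains CREB signalling, by 2.08 (SE 0.44, adjusted p = 0.0373) and Egr1 by 2.69 (SE 0.58, adjusted p = 0.0381). These WT calls held in 17 (Nr4a1), 11 (Sik1) and 10 (Egr1) of 24 alternative settings, and each was lost without WT PMSG replicate 1, 2 or 3 or WT hCG replicate 2 (adjusted p up to 0.147, for Egr1). Fosb, a partner of JUN, was higher in bERKO than in WT after hCG (2.17, SE 0.50, adjusted p = 0.0408), a call that held in 8 of 23 alternative settings and was lost without WT hCG replicate 1 (1.70, adjusted p = 0.136). Per1, with a TGACG core at -246, did not pass in either genotype. The median change of the 12 genes was 3.02 in bERKO and 1.69 in WT.

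Glucocorticoids are another signal that resets clocks and rises and falls over the day. Of 8 genes known to answer them, 2 rose and 2 fell in bERKO after hCG, where 7.06% of all genes rose and 11.9% fell, and 0 passed in WT, where 2.11% did. Sgk1, a kinase, rose by 3.24 (SE 0.49, adjusted p = 0.00115) and Mt2, a metallothionein, by 1.83 (SE 0.39, adjusted p = 0.00783), whereas Tsc22d3 (GILZ) fell by 1.80 (SE 0.37, adjusted p = 0.00597) and Zbtb16 fell by 1.46 (SE 0.34, adjusted p = 0.012). Of 7 measured output genes of the clock, 1 rose and 1 fell in bERKO, close to the same shares of all genes (7.06% and 11.9%): Lonrf3 rose by 1.97 (SE 0.60, adjusted p = 0.039) and Pdk4, a kinase that holds back pyruvate oxidation, fell by 1.36 (SE 0.37, adjusted p = 0.0255). The Lonrf3 call was lost in 8 of 24 alternative settings. No output gene passed in WT.

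The patterns most like those of the clock genes that passed were sought among all genes with a mean level of at least 7, by the root mean square difference of centred levels over the 12 arrays. Nearest to Nfil3 were Ugdh (0.31), Pim1 (0.32) and Zyx (0.33), where Nfil3 itself had an SD of 0.88 over the arrays. Cry2 had Kcnk5 (0.34), Mapk8 (0.34) and Rras2 (0.37) as its nearest, against its own SD of 0.96. Cry1 varied little, with an SD of 0.35, and lay nearest to Fzd5 (0.16), Tmem168 (0.16) and Psmd2 (0.18). For Clock they were Klf2 (0.23), Il18bp (0.25) and Atp1b1 (0.27), against an SD of 0.57, and for Per3 Fam122b (0.36), Tram2 (0.36) and Pld1 (0.36), against 0.93. None of these neighbours is another of the 10 clock genes.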

How the data were processed

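The data are one-colour arrays of 12 samples. Per the labels' protocols, 25 ng of total RNA went into whole-transcript amplification with a NuGEN Pico kit, followed by biotin labelling. The deposited values are linear intensities, 1 per probe set, and each array had a 2% trimmed mean of 500.0 when checked, so the authors' values are scaled to a common level; the sources used here do not name the software that made the intensities. Of 45101 probe sets, 64 controls were left out. Array medians of log2(intensity + 16) ran from 6.02 to 7.00 as deposited, and quantile normalization was therefore applied to the other 45037 probe sets. Gene names came from a platform annotation table, which can be old: 34945 probe sets named 1 gene and were used, 932 named several, and 9160 were not listed there. Dim genes were kept.

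The model had 1 mean per group, with all 12 arrays in the fit and 8 residual degrees of freedom (limma 3.58.1 with statmod 1.5.0 under R 4.3.3). For each of 6 comparisons, two-sided p-values were adjusted by Benjamini-Hochberg over all genes, and 95% intervals are from the same fit. The code was tested on simulated data. The number of arrays limits the precision. Same-numbered arrays of different groups did not deviate together (correlation -0.08 to 0.12 over 18 pairs), so the numbers were not taken as pairs. No arrays held identical values; the highest correlation between 2 arrays was 0.971.

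The 10 clock genes and the lists were chosen with earlier results of these data known. All 10 are named. From each other list, up to 4 genes per comparison were named, those with the smallest p among genes that passed, and, for each clock gene that passed anywhere, the 3 nearest genes. Alternatives covered scaling, offset, dim genes, probe set choice, single arrays, array weights, Gapdh ratio, replicate block, variance trend and the samples in the fit. Sequences are RefSeq's (GRCm38.p6), searched with Python 3.11.15; figures used matplotlib 3.10.9.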

Additional observations from a re-analysis of the deposited data

How the results depend on the processing

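Each value was recomputed under 24 alternatives, 12 of which left out 1 array. Of 1414 values of the 10 clock genes, 1318 kept their direction and their side of the threshold, 33 lost a call, 33 gained one and 30 changed sign; where no cause is given, the cause was not tested. The number of clock genes called in bERKO after hCG, 3, became 5 with the filter on dim genes (which removes Per2), the mean of all probe sets, without both arrays of high Gapdh ratio, or with array weights, and 1 to 5 when single arrays were left out. Averaged over both genotypes, 4 became 2 to 5 without single arrays. In WT, 0 became 1 with log2(intensity + 64), the dim filter, without the Gapdh pair or with weights. For the genotype difference after hCG, 0 became 1 with log2(intensity + 64) or the mean of probe sets, 2 with weights, and 0 to 1 without single arrays. Over all genes, the WT response (384 called) gave 233 as deposited, 140 with log2(intensity + 1), 871 with log2(intensity + 64), 771 with the dim filter, 817 without the Gapdh pair, 1602 with weights, 34 with the compared groups alone, 802 with a variance trend and 53 to 565 without single arrays. The genotype difference after hCG (577) gave 227 with log2(intensity + 1), 879 with log2(intensity + 64), 237 without the pair, 1241 with weights, 257 with the compared groups alone, 920 with a trend and 146 to 666 without single arrays; its higher and lower calls were 288 and 289, 221 and 344 as deposited, and 356 and 179 with median centring. The genotype difference after PMSG (2) gave 7 as deposited or without the pair, 5 with median centring, 0 with log2(intensity + 1) or the Gapdh covariate, 12 with log2(intensity + 64), 8 with the dim filter, 1 with the mean of probe sets or the compared groups alone, 20 with a trend and 0 to 26 without single arrays. The difference of responses (241) gave 96 with log2(intensity + 1), 455 with log2(intensity + 64), 404 with the dim filter, 101 without the pair, 426 with weights, 513 with a trend, 104 with the Gapdh covariate and 82 to 423 without single arrays. With the replicate block, counts over all genes were 3149 in bERKO, 165 in WT, 3141 over both, 412 and 2 for genotype after hCG and PMSG, and 130 for the difference; Per1 then passed in bERKO (1.28, adjusted p = 0.0464 by limma) and Per3 missed over both genotypes (adjusted p = 0.0585). Of 18 same-numbered pairs 1 correlated over 0.1, and 6 of 12 arrays correlated best with their own number. The median change of all genes in bERKO was -0.19, -0.05 as deposited and -0.41 with median centring. Signs changed for values near 0 and for some further from it. As processed above, Per2 was 0.51 in bERKO and -0.43 for genotype after PMSG, and the difference of responses of Clock was -0.41. Cry1 in WT was -0.005 as deposited, -0.258 with median centring, -0.076 without the pair, -0.023 with weights, -0.098 with the Gapdh covariate and -0.076 to 0.103 without single arrays. Nr1d1 in bERKO was 0.26 as deposited and -0.309 to 0.295 without single arrays, over both genotypes -0.017 without the pair and -0.056 to 0.245 without single arrays, and its difference of responses -0.506 to 0.101. Nr1d2 in WT was 0.086 with the mean of probe sets and -0.245 to 0.043 without single arrays. Without the pair Per2 was -0.089 in bERKO, -0.009 over both genotypes, 0.009 and 0.169 for genotype after hCG and PMSG, and -0.16 for the difference, which was -1.021 with the mean of probe sets; without single arrays these ran from -0.088 to 0.915 in bERKO, -0.283 to 0.008 and -0.836 to 0.168 for genotype after hCG and PMSG, and -0.281 to 0.723 for the difference. For genotype after PMSG, Per1 ran from -0.597 to 0.238 without single arrays and Dbp was -0.302 with the Gapdh covariate. The difference of responses of Clock was 0.011 with the mean of probe sets. Fits of the compared groups alone were not made for the mean of both genotypes and the difference, which use all 4 groups. Dim signal limits Per2, Hlf and the further probe sets of Per3.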
